A study of Rattus norvegicus with 20 samples.

Results

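The cytoplasmic ribosomal proteins of cultured rat microglia were followed across 5 treatments. They were taken from the table by symbol: RPL or RPS followed by a digit, or RPLP0, RPLP1, RPLP2 or RPSA, leaving out the RPS6K kinases and RPS19BP. The rule found 85 of the 17310 genes in the table. Of these, 31 encode proteins of the small subunit, 43 proteins of the large subunit and 3 the P proteins of the stalk, and 8 are paralogs or pseudogenes of a main gene. Of the 85, 83 reached 1 FPKM in at least 4 libraries and were tested among 8858 genes; the untested members, Rpl3l and Rps4x-ps1, did not exceed 1 FPKM in any library.

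A cytoplasmic ribosome joins a small subunit, which decodes the mRNA, to a large subunit, which forms the peptide bond. The genes for its proteins are among the most strongly transcribed in any cell, and their mRNAs start with a run of pyrimidines, the 5′ terminal oligopyrimidine (TOP) tract, through which growth signalling by mTOR controls their translation. Microglia are the resident macrophages of the brain, and Toll-like receptor agonists switch them from surveillance to the production of cytokines.

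The donors of all cells were male Sprague-Dawley rats, 21 days old. The labels name the tissue as cortical microglia, and brains without the cerebellum were the starting material. Myeloid cells were captured on CD11b and cultured without serum for 5 days, and every treatment was given in a 50% medium change. There were 4 libraries each of PBS, morphine (1 uM), LPS (1 ng/mL; a TLR4 agonist), PAM3CSK4 (1 ng/mL; a TLR2 and TLR1 agonist) and zymosan (100 ug/mL; a yeast wall particle sensed by TLR2), 20 in all. The time from treatment to lysis is not given in the labels. They also leave unstated if replicate libraries represent different animals or cultures, so p-values reflect the scatter of these libraries alone, which may be technical. In bulk RNA, fewer cells of a type and less RNA per cell cannot be told apart.

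The libraries fell into sets of 7 and 13 that the treatments do not explain. The smaller set held replicate 1 of every group, morphine replicate 2 and LPS replicate 2. RN18S, the 18S rRNA of the small subunit, was listed at 0 in 6 of these 7 libraries. In LPS replicate 1 it was at 6244 FPKM, and in the larger set at 2658 to 5656 FPKM. Leaving RN18S out of the FPKM sum moved no group's mean share of ribosomal protein genes by 1 SD. Its part in the other results was not tested. The split is the first principal component after group means were removed, with 63.2% of the remaining variance, and the same libraries were separated when the ribosomal protein genes were left out. Since the sets were found in these data, differences between them are described and not tested. Relative depth, recovered from ratios of low values, was 70.1% to 93.7% of that of PBS replicate 2 in the smaller set and 55.8% to 100% in the larger set. All 9 microglial markers in the table were detected, at a summed 540.1 to 1377 FPKM. The 6 markers of other myeloid cells in the table summed to 1511 to 5060.5 FPKM, above every microglial sum. Markers of neurons summed to at most 25.5 FPKM, of endothelial cells to 21.0, of the oligodendrocyte lineage to 11.1 and of astrocytes to 4.52, with Rbfox3, Cldn5, Mag, Gfap and Aqp4 at 0 in all libraries. Endothelial markers summed to 5.69 to 11.0 FPKM in the smaller set and 16.1 to 21.0 in the larger set; their part in the results below was not tested.

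A run of pyrimidines lay near the annotated start of many of these genes, though not of all. It was not required to touch the start, and in Rps3 and Rpl5, for example, it ended before it. Windows of 30 bases, 15 on each side of the RefSeq start (assembly GRCr8), are shown 5′ to 3′ with the longest run of C or T in capitals. Rps2, Rpl5, Rps3 and Rpl3 are shown because they were lower with all 3 TLR agonists, Rpl38, Rpl37a and Rps27 because they were among those that differed most between the library sets, and Rpl10 and Rplp0 because they had the highest levels.
Rps2: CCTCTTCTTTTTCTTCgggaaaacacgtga
Rpl5: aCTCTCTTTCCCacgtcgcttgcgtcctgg
Rps3: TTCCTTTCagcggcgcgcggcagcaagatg
Rpl3: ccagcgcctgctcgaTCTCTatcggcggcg
Rpl38: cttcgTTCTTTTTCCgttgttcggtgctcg
Rpl37a: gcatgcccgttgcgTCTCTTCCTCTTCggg
Rps27: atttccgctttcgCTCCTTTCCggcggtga
Rpl10: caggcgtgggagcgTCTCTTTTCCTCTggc
Rplp0: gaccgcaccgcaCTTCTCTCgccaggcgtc
The positions in GRCr8 are Rps2 chr10:14251833-14251862 (plus strand), Rpl5 chr14:1995211-1995240 (minus strand), Rps3 chr1:163195762-163195791 (minus strand), Rpl3 chr7:113507976-113508005 (minus strand), Rpl38 chr10:100200420-100200449 (plus strand), Rpl37a chr9:81748076-81748105 (plus strand), Rps27 chr2:177964592-177964621 (minus strand), Rpl10 chrX:157205835-157205864 (plus strand) and Rplp0 chr12:46718376-46718405 (minus strand). The run was longest in Rps2 of these, at 16 bases, and shortest in Rpl3, at 5.

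Among the members, 66 matched a RefSeq promoter by symbol and 65 of them a single start. A run of at least 8 C or T on the sense strand lay in the window of 43 of the 65 (66.2%), against 11.4% of all 33469 promoters. The median longest run was 9 bases in the members and 4 in all promoters. In the longer window from 250 bases before to 50 after the start, searched on both strands, CTTCCG (the core recognised by ETS factors such as GABPA) was present in 55.4% of the members and 16.6% of all promoters. AAGATGG, the core of the YY1 motif, was present in 15.4% and 7.01%. CTTCCG can overlap a run of C or T. AAGATGG contains ATG and can overlap a start codon, as the window reaches 50 bases past the start. A match is a description of the sequence, not a measured site.

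Ribosomal protein mRNAs made up 6.16% to 13.3% of the FPKM sum of a library (FPKM, fragments per kilobase of transcript, scaled to mapped fragments). The share was 11.8%, 9.04%, 8.21% and 8.27% in PBS replicates 1 to 4, 11.9%, 13.3%, 7.58% and 8.45% with morphine, and 9.76%, 11.1%, 6.86% and 6.16% with LPS. With PAM3CSK4 it was 11.6%, 8.24%, 6.95% and 6.89%, and with zymosan 9.85%, 6.93%, 6.51% and 7.02%. The high values of each group belonged to the smaller library set, and every treated group overlapped PBS. Group means were 9.34% ± 1.7 (SD, n = 4) in PBS, 10.3% ± 2.73 with morphine, 8.47% ± 2.34 with LPS, 8.41% ± 2.2 with PAM3CSK4 and 7.58% ± 1.53 with zymosan. Within the larger set alone, LPS (6.16% to 6.86%, n = 2) and zymosan (6.51% to 7.02%, n = 3) lay below PBS (8.21% to 9.04%, n = 3), while PAM3CSK4 (6.89% to 8.24%) and morphine (7.58% to 8.45%) overlapped it. The share is a sum over the members and was not tested.

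**Figure D1:**
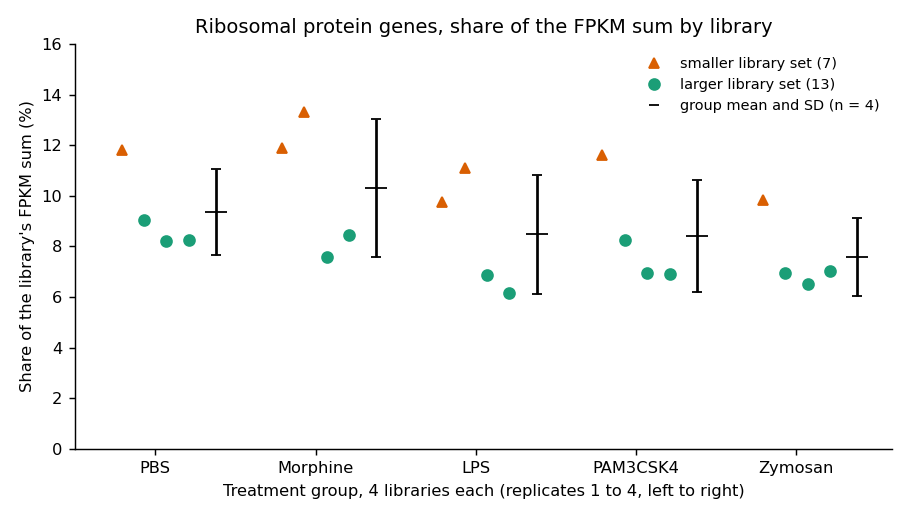
Summed FPKM of the 85 ribosomal protein genes as a percentage of each library's FPKM sum, by treatment group. Triangles are the 7 libraries of the smaller set (9.76% to 13.3%) and circles the 13 of the larger set (6.16% to 9.04%); bars show group means and SD, n = 4.

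In untreated cells most members were strongly expressed. Rpl10, a large subunit protein that takes part in joining the subunits, was highest at 2082 ± 234 FPKM (SD, n = 4 PBS libraries). Rplp0, the base of the stalk that recruits elongation factors, followed at 1372 ± 151 FPKM, then Rplp1, another stalk protein, at 1097 ± 349. Rpl41, the smallest ribosomal protein, was at 965 ± 309.8 FPKM and Rpl19 at 942 ± 81.2. Rplp0, Rplp1, Rpl41 and Rpl19 were not separated from the next in this order, whose PBS libraries overlapped. Rpl10 lay above the other members in each PBS library.

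The paralogs mostly sat below their main genes. Rps4y2 was at 24.3 ± 3.07 FPKM in PBS against 671 ± 44.9 for Rps4x, and Rps27l at 188 ± 33.3 against 449 ± 209 for Rps27, and neither pair overlapped. Rpl22l1 was closer to its partner, at 97.0 ± 21.4 FPKM against 129 ± 35.5 for Rpl22, and these groups overlapped. Rpl36al exceeded Rpl36a, at 197 ± 56.7 against 85.4 ± 20.3 FPKM, without overlap. Rpl39l was listed at 0 in 15 of 20 libraries and stood at 2.27, 4.12, 2.26, 0.997 and 1.39 FPKM in replicate 1 of PBS, morphine, LPS, PAM3CSK4 and zymosan. Its values above 0 therefore fell on the same replicate number in every group, and all of those libraries are in the smaller set. Rpl3l (at most 0.225 FPKM) and Rps4x-ps1 were the lowest members. Near-identical copies can share reads in ways the authors' counting could split. Rpl37a-ps1 was listed at 0 in 10 libraries, and in PBS replicates 1 to 4 at 0, 0, 67.6 and 69.5 FPKM, where Rpl37a was at 524, 269, 189 and 200.4. Both are uncertain.

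With LPS, PAM3CSK4 and zymosan a few ribosomal protein mRNAs were called lower on the FPKM scale, and none was called higher. Rps2, Rpl5, Rpl3 and Rps3 were called with all 3 agonists, with SEs of 0.11 to 0.15 (log2). The calls depended on the spread as well as on the size of the difference. Rpl36, for example, was not called at −0.41, −0.48 and −0.48, each with an SE of 0.32. Most members did not pass the test, and no member was called when the libraries were first rescaled to a common median. The comparisons with PBS share the PBS libraries, so they are given side by side and their overlap is not a separate result.

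With LPS, 7 of 83 members were called lower and 0 higher (limma on log2(FPKM + 1), Benjamini-Hochberg adjusted p under 0.05 over 8858 genes). Among all genes 27.3% were called lower and 5.02% higher. PAM3CSK4 gave 4 lower and 0 higher, against 22.6% of all genes lower and 5.62% higher. Zymosan gave 5 lower and 0 higher, against 14.2% and 4.66% of all genes. In this fit the share of members called lower was thus below that of all genes with each agonist. With a term for the library sets, described below, it was above that of all genes with LPS and zymosan. In the order LPS, PAM3CSK4, zymosan, the median member difference was −0.20, −0.20 and −0.30 (log2), against −0.37, −0.27 and −0.18 over all genes tested. Differences below 0 were found in 79 of 83 members with LPS (77.7% of all genes), 75 with PAM3CSK4 (72.5%) and 81 with zymosan (69%). Groups did not overlap for 7 members with LPS, 6 with PAM3CSK4 and 10 with zymosan, always lower with the agonist, against 26.3%, 24.2% and 19.9% of all genes. Marker sums moved with the agonists as well. The 9 microglial markers summed to 1145 to 1377 FPKM in PBS and 540.1 to 762 over the agonist libraries, and 6 markers of other myeloid cells (Cd163 at 0 throughout) to 3316 to 5060.5 and 1511 to 2495. Neuronal markers summed to 2.9 to 6.59 FPKM in PBS and 9.51 to 25.5 with the agonists, with Syt1, Rbfox3 and Stmn2 at 0 in all libraries. The part of these shifts in the members' differences was not tested.

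**Figure D2:**
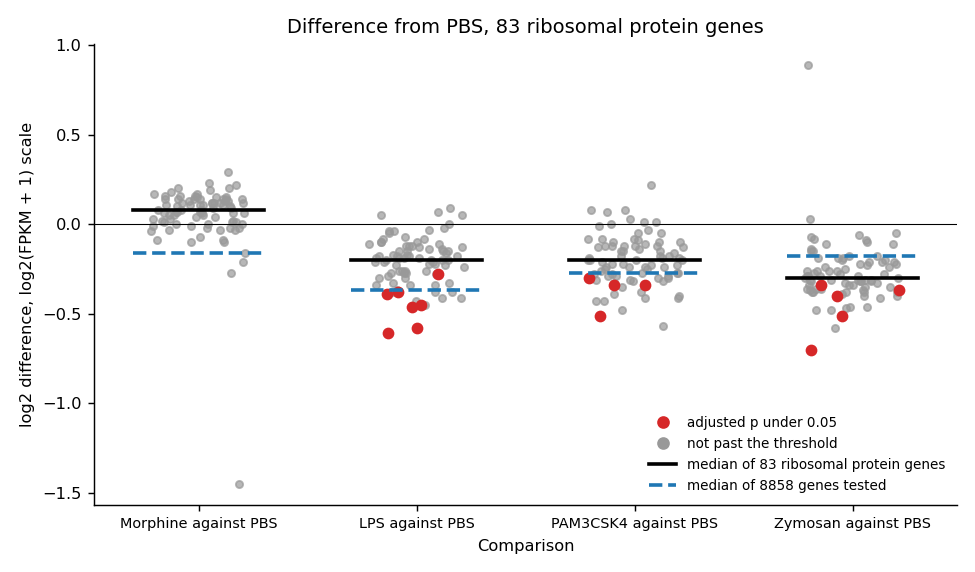
Difference of each of 83 ribosomal protein genes from PBS on the log2(FPKM + 1) scale. Red points passed an adjusted p of 0.05 (7 with LPS, 4 with PAM3CSK4, 5 with zymosan, 0 with morphine); solid lines are member medians and dashed lines the medians of all 8858 genes tested.

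In the small subunit, Rps2, a core protein near the mRNA entry channel, had the same pattern with every agonist. It was at 586, 516, 468 and 457 FPKM in PBS replicates 1 to 4 and at 387, 387, 287 and 303 with LPS. With PAM3CSK4 it was at 427, 353, 327 and 315 FPKM, and with zymosan at 434, 321, 340.1 and 330.3. No agonist library reached the lowest PBS library, whereas morphine libraries, at 612, 468, 435 and 468 FPKM, overlapped PBS. The log2 difference was −0.58 (SE 0.15; limma adjusted p 0.00549) with LPS, −0.51 (0.15; 0.0132) with PAM3CSK4 and −0.51 (0.15; 0.0188) with zymosan.

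Rps3, a protein of the mRNA entry site that also has a part in DNA repair, was at 732, 653, 615 and 631 FPKM in PBS and at 576, 517, 453 and 466 with LPS. With PAM3CSK4 it was at 559.8, 547, 542 and 488 FPKM, and with zymosan at 567, 473, 505 and 491. Each agonist group lay wholly below PBS, with log2 differences of −0.39 (SE 0.11; limma adjusted p 0.0101), −0.30 (0.11; 0.0468) and −0.37 (0.11; 0.0213). Rpsa, which also serves as a laminin receptor, was at 694, 608, 577 and 569 FPKM in PBS and at 511, 522, 409.7 and 439.8 with LPS, a difference of −0.38 (SE 0.11; limma adjusted p 0.0128). Its PAM3CSK4 libraries (460.1 to 526 FPKM) and zymosan libraries (470.1 to 523) also lay below every PBS library. Those differences, −0.30 and −0.32, had adjusted p-values of 0.052 and 0.0524 in limma and were not called.

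Rps27a, which is made as a fusion with ubiquitin, was called with zymosan. It was at 523, 422, 362 and 434 FPKM in PBS and at 329, 229, 239 and 273 with zymosan, which do not overlap. The difference was −0.70 (SE 0.22; limma adjusted p 0.0296). With LPS its values, 417, 520.3, 320.3 and 301 FPKM, overlapped PBS (−0.18, adjusted p 0.545), and PAM3CSK4 gave −0.57 (adjusted p 0.0594). Rps6, the substrate of the S6 kinases, Rps14, and Rps19, the gene most often mutated in Diamond-Blackfan anaemia, were not called in any comparison with PBS. With LPS, Rps6 differed by −0.13 (95% interval −0.56 to 0.29), Rps14 by −0.18 (−0.66 to 0.30) and Rps19 by −0.10 (−0.57 to 0.37).

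In the large subunit, Rpl5, which with Rpl11 and 5S rRNA can bind Mdm2, was at 511, 446, 449 and 428 FPKM in PBS and at 353, 383, 306 and 297 with LPS. With PAM3CSK4 it was at 389.6, 357, 352 and 347 FPKM, and with zymosan at 384, 343, 362 and 360.5. All 12 agonist libraries lay below all PBS libraries. The differences were −0.46 (SE 0.11; limma adjusted p 0.00255), −0.34 (0.11; 0.0209) and −0.34 (0.11; 0.0307). Its partner Rpl11 was not called, with −0.21 (95% interval −0.62 to 0.19) after LPS. Within the larger library set, Rpl11 was at 214 to 222 FPKM with LPS and at 284 to 297 in PBS. In that set LPS libraries lay wholly below PBS for 70 of 83 members and 51.5% of all genes.

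Rpl3, a large protein near the peptidyl transferase centre, was at 653, 692, 622 and 589 FPKM in PBS, 475, 432, 480.1 and 478 with LPS and 462, 537, 500.1 and 435 with zymosan. The LPS and zymosan libraries lay below PBS, with differences of −0.45 (SE 0.12; limma adjusted p 0.0061) and −0.40 (0.12; 0.02). PAM3CSK4 libraries, at 449.6, 596, 506 and 477 FPKM, overlapped PBS by replicate 2, with −0.34 (0.12; 0.0378). Rpl4, which lines the exit tunnel, was at 618, 679, 632 and 632 FPKM in PBS and at 543, 509, 509 and 539 with LPS, without overlap, a difference of −0.28 (SE 0.08; limma adjusted p 0.013). Rpl7a was at 121, 109.9, 92.3 and 83.3 FPKM in PBS and at 90.7, 48.6, 69.0 and 60.6 with LPS, where replicate 1 overlapped PBS; the difference was −0.61 (SE 0.18; limma adjusted p 0.0135). With PAM3CSK4 and zymosan Rpl4 and Rpl7a were not called.

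The highest members did not pass the test. Rpl10 differed from PBS by −0.04 (95% interval −0.39 to 0.31) after LPS, 0.08 (−0.27 to 0.43) after PAM3CSK4 and −0.10 (−0.44 to 0.25) after zymosan. Rplp0 differed by −0.15 (−0.45 to 0.15), −0.05 (−0.35 to 0.25) and −0.19 (−0.49 to 0.11). Neither gene's groups separated from PBS over all libraries. Within the larger library set, Rpl10 with LPS (1717 to 1788 FPKM) lay below PBS (1891 to 2075). Rpl13a, which is released from the ribosome to form the interferon-gamma activated inhibitor of translation in myeloid cells, differed by −0.07 (−0.38 to 0.24) with LPS. With zymosan Rpl13a libraries lay below every PBS library, at −0.29 (−0.59 to 0.02; limma adjusted p 0.203). Rpl23 and Rpl24 were not called with any treatment. Rps27l, a p53 target, was at 0.09 with LPS, 0.22 with PAM3CSK4 and 0.03 with zymosan, and Rps27 at −0.15, −0.27 and −0.32, none past the threshold. Rpl22 with zymosan was at −0.58 (−1.21 to 0.05) and its paralog Rpl22l1 at −0.26 (−0.78 to 0.27).

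**Figure D3:**
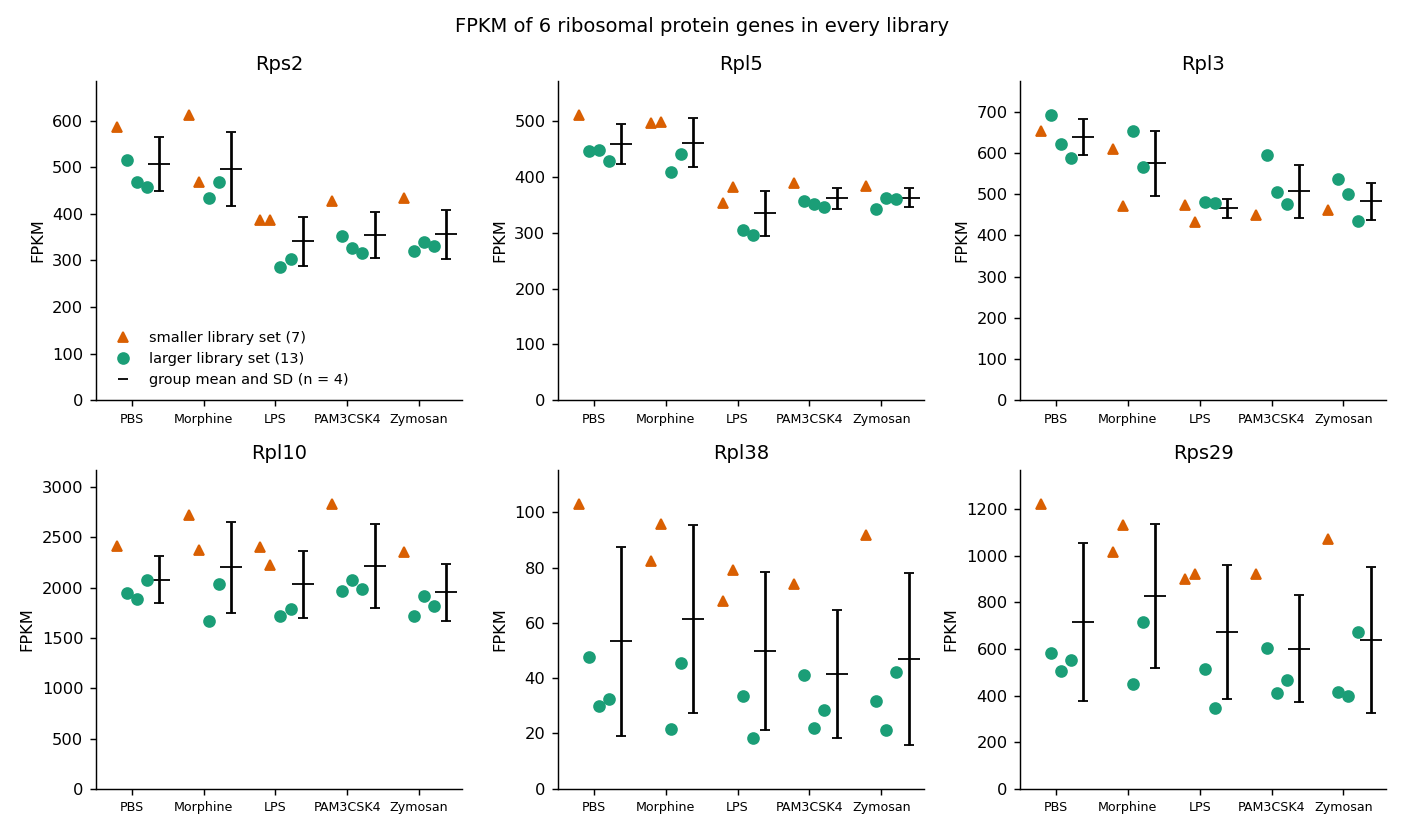
FPKM of 6 ribosomal protein genes in each of 20 libraries, by treatment, replicates 1 to 4 from left to right; triangles are the smaller library set, circles the larger, bars the group mean and SD (n = 4). Rps2 and Rpl5 lie below PBS in every agonist library, Rpl3 in all but 1 (PAM3CSK4 replicate 2), and Rpl10, Rpl38 and Rps29 are highest in the smaller set.

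These falls are on a scale relative to each library's total. The median over all genes itself moved by −0.37, −0.27 and −0.18 with LPS, PAM3CSK4 and zymosan. After median-ratio rescaling, which takes that shift out, 0 members were called with any agonist in limma, 0 had an unadjusted p under 0.05, and the member medians were 0.23, 0.10 and −0.10. Among all genes 25.9%, 25.5% and 17.4% were still called in either direction. Rps3, Rpsa and Rpl4 changed sign with LPS, to 0.05, 0.05 and 0.15, and Rps3 with PAM3CSK4, to 0.02. The other 12 called differences stayed below 0, but none passed the threshold. Relative to the median gene, no fall of any single member was thus detectable without a term for the library sets.

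The library sets took much of the spread. With a library-set term, limma called 57 members lower with LPS, 28 with PAM3CSK4 and 42 with zymosan, and 0 higher, against 40.6%, 40.4% and 28.4% of all genes lower and 9.74%, 10.5% and 9.56% higher. Within the 13 libraries of the larger set it called 52, 15 and 30 lower (38%, 36.6% and 29.3% of all genes). In both fits the share of members called lower was above that of all genes with LPS and zymosan, and below it with PAM3CSK4. With the set term and the rescaling together, chosen after seeing the data, 1, 1 and 3 members were called lower (20.7%, 21.3% and 15.8% of all genes) and 0, 13 and 0 were called higher (21%, 21.6% and 16.4% of all genes). Rps2 was the member called lower with each agonist there, at −0.33, −0.20 and −0.30 (limma adjusted p 0.00226, 0.045 and 0.00471). With zymosan Rps27a (−0.49; adjusted p 0.0115) and Rpl22 (−0.37; 0.0398) were the others. The 13 called higher with PAM3CSK4 included Rpl10 (0.40; adjusted p 0.00061) and Rplp0 (0.27; 0.0296). The set term was built from the same values that it then models, and these p-values may be too small.

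Single libraries decided some calls. Without PBS replicate 1, 2 or 3, or PAM3CSK4 replicate 3 or 4, the PAM3CSK4 count went from 4 to 1, 2, 2, 2 and 1. Without PBS replicate 1 or 2 the zymosan count went from 5 to 1 and 1, and without zymosan replicate 2, 3 or 4 to 1, 3 and 0. The LPS count stayed between 7 and 9.

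Morphine called no member. The count was 0 of 83 in limma, with 0 members and 1.17% of all genes at an unadjusted p under 0.05 and 0% of all genes called at the adjusted threshold. The 5 smallest p-values belonged to Rpl7a, Rpl3, Rpl4, Rps27a and Rpsa, each with an adjusted p of 0.897. Rpl4 bounded a change most closely, at −0.09 (95% interval −0.26 to 0.09), and Rpl7a was at −0.27 (−0.64 to 0.11). Rpl7a libraries at 88.3, 87.3, 64.6 and 97.1 FPKM overlapped PBS. The median member stood at 0.08 and the median gene at −0.16, and 19 of 83 members lay below 0, against 75.4% of all genes. The morphine group holds 2 libraries of the smaller set and PBS holds 1; with the set term and rescaling the member median was 0, the same as over all genes, and 0 members were called.

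No member was called in PAM3CSK4 against LPS, zymosan against LPS or zymosan against PAM3CSK4 (limma; 0 of 83 in each, against 0.0339%, 0.0903% and 0% of all genes), and at an unadjusted p under 0.05 the counts were 0, 1 and 0 (3.87%, 8.12% and 3.38% of all genes). Rps2 in PAM3CSK4 against LPS was at 0.06 (95% interval −0.25 to 0.37), and in zymosan against LPS at 0.07 (−0.24 to 0.37). The smallest p-values in PAM3CSK4 against LPS were those of Rpl4 (0.16; p 0.0665), Rpl7a and Rps27a, with adjusted p 0.988. Rpl4 was higher with PAM3CSK4 (547, 630.4, 605 and 571 FPKM) than with LPS (509 to 543), without overlap, which held for 1.49% of all genes. Rps27a in zymosan against LPS was at −0.52 (SE 0.22; p 0.0278, limma adjusted p 0.572) and its libraries overlapped; Rpl13a and Rps9 followed. In zymosan against PAM3CSK4 the lowest were Rps3a, Rpl7 and Rpl4, with adjusted p 1.

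The members moved together between libraries, along the library sets. After group means were removed, 58 of 83 members had a correlation over 0.9 with the median member across the 20 libraries. The median correlation was 0.96. The members share the depth and the set of each library, and the median member is built from these same genes. A high correlation is thus partly built in, and no share of all genes stands beside the count. Rpl3, Rpl4 and Rpl37a-ps1 stood apart at −0.40, −0.39 and −0.38. The residual SD was small in Rpl3 and Rpl4, 0.14 and 0.06 (log2), and 3.25 in Rpl37a-ps1, with its listed zeros. The mean within-group difference, smaller minus larger set, was above 0 in 80 of 83 members, against 25.4% of all genes, with a median of 0.58 (1.5-fold) against −0.36. In all, 39 members were at least 1.5-fold higher in the smaller set (4.53% of all genes). In 44 members every library of the smaller set lay above every library of the larger set, against 2.37% of all genes.

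Rpl38, a large subunit protein implicated in the translation of Hox mRNAs, had the largest set difference above 0, 1.46 (2.76-fold). It was at 103 FPKM in PBS replicate 1 and at 47.6, 29.9 and 32.5 in the others, and at 91.6 against 31.9, 21.3 and 42.4 with zymosan. The 7 libraries of the smaller set spanned 68.0 to 103 FPKM and the other 13 spanned 18.4 to 47.6. Rpl37a, at 1.19, and Rps29, at 1.05, were named after their values were seen. The value of Rpl37a is uncertain, since Rpl37a-ps1 may share its reads and was listed at 0 in 6 of the 7 libraries of the smaller set and in 4 of the 13 of the larger. Rps29 ranged from 902 to 1223 FPKM in the smaller set and from 348 to 716 in the larger, and Rpl37a from 314 to 524 and from 108 to 269. The sets did not overlap for any of these genes. Rpl3, at −0.10, and Rpl4, at −0.05, lay at the other end, with Rpl37a-ps1 at −3.27 through its listed zeros; Rpl3 spanned 432 to 653 and 435 to 692 FPKM. As background, Rpl3 and Rpl4 are among the largest ribosomal proteins and Rpl38, Rpl37a and Rps29 among the smallest; transcript length was not analysed here.

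**Figure D4:**
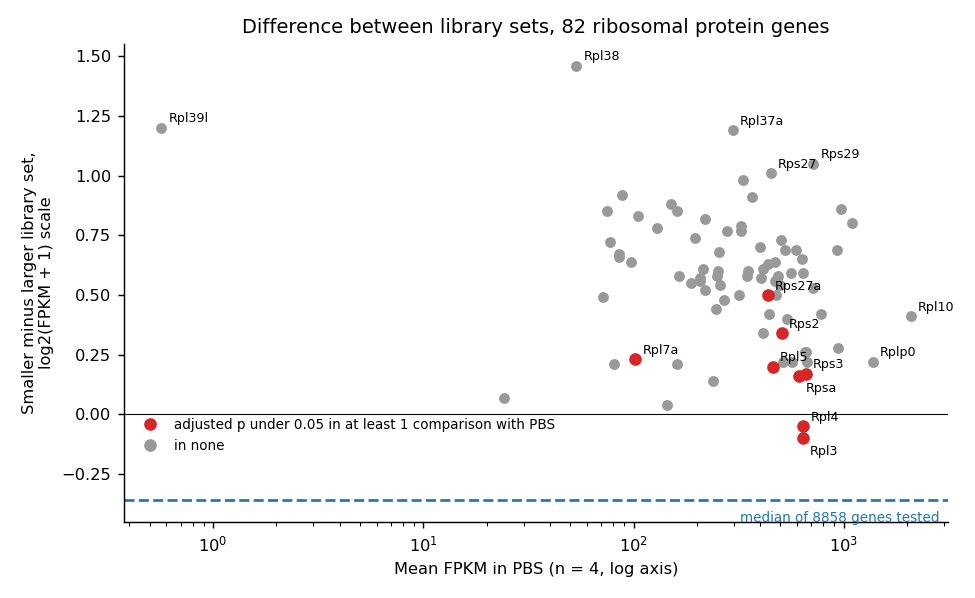
Difference between library sets (smaller minus larger, mean of the within-group log2 differences) against mean PBS level for 82 ribosomal protein genes, Rpl37a-ps1 not drawn. Red points were called in at least 1 comparison with PBS; Rpl38 is highest at 1.46, Rpl3 lowest at −0.10, and the dashed line is the median of all genes, −0.36.

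By subunit, the medians were close. The shares of all genes called lower, 27.3%, 22.6% and 14.2% with LPS, PAM3CSK4 and zymosan, are the background for the counts of these groups and of the lists after them, and 5.02%, 5.62% and 4.66% that for genes called higher. The small subunit's 31 genes had medians of −0.19 with LPS, −0.23 with PAM3CSK4 and −0.31 with zymosan, with 3, 2 and 3 called lower. The large subunit's 43 genes had −0.22, −0.22 and −0.31, with 4, 2 and 2 called lower. The 3 stalk genes had −0.08, −0.09 and −0.18, and the 6 tested paralogs and pseudogenes −0.01, −0.11 and −0.10, with none called.

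Other genes of the ribosome's life were read from lists. The values given for these lists are from the main FPKM fit, with neither rescaling nor a term for the library sets. Of 32 tested ribosome assembly genes, 13 were called lower and 1 higher with LPS. PAM3CSK4 gave 5 lower and 1 higher, and zymosan 3 lower and 1 higher. Nop56, a box C/D snoRNP core protein, was at 39.7 ± 4.34 FPKM in PBS and 18.4 ± 2.97 with LPS (n = 4 each; −1.07, SE 0.17, limma adjusted p 9.11e-05). Rrs1, which brings the 5S particle into the large subunit, fell from 14.0 ± 1.13 to 6.99 ± 0.724 FPKM (n = 4 each; −0.91, SE 0.14, limma adjusted p 5.22e-05). Sbds, which helps to release Eif6 from the new large subunit, rose from 23.5 ± 1.45 to 35.5 ± 2.84 FPKM (n = 4 each; 0.58, SE 0.13, limma adjusted p 0.00166). The median of the list was −0.53, −0.30 and −0.27, against −0.37, −0.27 and −0.18 over all genes.

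Of 72 mitochondrial ribosomal protein genes, which make a separate ribosome, 27, 26 and 14 were called lower and 1, 2 and 1 higher, with medians of −0.41, −0.44 and −0.33. Mrps26 differed by −1.33, −1.09 and −0.95, each called, and Mrpl24 by 0.50 with LPS and 0.57 with PAM3CSK4. Of 36 initiation factor genes, 5, 3 and 1 were called lower and 2, 2 and 2 higher. Eif4ebp2, a repressor of cap-dependent initiation, was at 17.4 ± 3.6 FPKM in PBS and at 6.11 ± 3.15, 5.21 ± 1.75 and 8.18 ± 1.15 with the agonists (n = 4 each; −1.44, −1.59 and −0.99 in limma, adjusted p 0.00023, 0.000101 and 0.00859). Eif1, the start-codon selection factor, rose from 460.1 ± 36.5 to 649.6 ± 52.6 FPKM with LPS, and Eif6 from 76.4 ± 4.04 to 101 ± 8.57.

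Of 11 elongation and termination factors, 3, 1 and 0 were called lower, with Eef1e1, an accessory protein of the aminoacyl-tRNA synthetase complex, at −0.63 with LPS, and Eef1d, an exchange factor subunit for Eef1a, at −0.31. Of 8 other mRNAs known to carry a TOP tract, 4, 2 and 1 were called lower. Hnrnpa1, a splicing regulator, was called with each (−0.95, −0.80 and −0.62), and Vim, an intermediate filament protein, with LPS (−0.43) and PAM3CSK4 (−0.53). Of 15 growth signalling genes, 2, 1 and 1 were called lower: Pdcd4, a target of the S6 kinases, with each agonist (−1.47, −1.82 and −1.45), and Rps6kb1, an S6 kinase, with LPS (−0.73). Outside the symbol rule, Rsl24d1 was called lower with LPS (−0.58), and Fau and Gnb2l1 (Rack1) were not called. Morphine called 0 genes of these lists. No list was tested as a set.

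**Figure D5:**
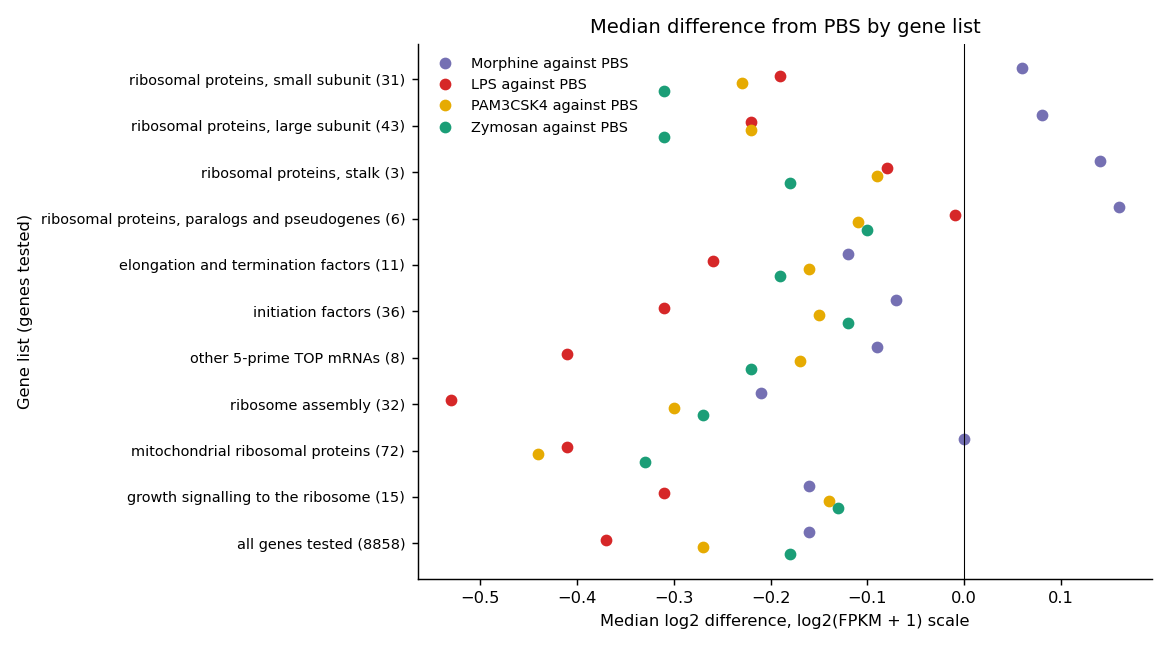
Median log2 difference from PBS by gene list, with the number of genes tested in parentheses; each colour is 1 treatment. Ribosome assembly genes with LPS are lowest at −0.53, and the small and large subunit genes lie at −0.19 and −0.22.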

How the data were processed

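Expression was measured by RNA sequencing in 20 libraries, 4 per treatment, prepared by the Smart-Seq2 and Nextera XT methods per the labels' protocols. The authors deposited 1 table of FPKM by gene symbol. FPKM depends on the total of its library, so that a large increase elsewhere reduces every other value. HISAT2 2.0.5.1, Cufflinks 2.2.1, featureCounts 1.4.6, DESeq2 and the build rn6 appear in the submitters' processing notes without roles. Counts were not used here, and absolute depth is unknown. Relative depth was read from ratios of values under 2 FPKM, of which 43.7% to 60.2% were ratios of whole numbers from 1 to 12 (tolerance 3e-05 on the natural log scale).

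Genes reaching 1 FPKM in 4 or more libraries (8858) were analysed as log2(FPKM + 1), which understates differences of low genes. Group means were estimated from all 20 libraries with limma 3.58.1 (R 4.3.3), using a mean-variance trend. Tests were two-sided, with Benjamini-Hochberg adjustment within each of 7 comparisons and a threshold of 0.05. The procedure was tested on simulated data with known changes. Library sets were found in the data by principal components.

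The members and the lists were chosen with earlier results of these data known. Members named are the 5 highest and 5 lowest in PBS, called members whose groups did not overlap (up to 5 in each direction) or the 5 smallest p-values where fewer than 5 were called, 3 for each pair of agonists, members with known roles and paralog pairs, members with listed zeros, and 2 to 4 examples of each other list. Of the genes on the other lists, 1 is not reported here. RefSeq (GRCr8) symbols matched 83 of 85 members and were used for spelling and promoters. Other settings tried were a 0.1 FPKM pseudocount, an unfiltered table, libraries rescaled by median ratios, a replicate block, fits of 2 groups alone, a library-set term, the larger set alone, listed zeros taken as missing, and omission of each library. A set term together with rescaling was added after the data were seen. For the member share, RN18S or the paralog members were also left out, or the sum was taken over the tested genes only. Plots were drawn with matplotlib 3.10.9.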

Additional observations from a re-analysis of the deposited data

Results flagged for a closer look

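Within groups of 4 libraries, a library far from the other 3 was sought for the member share and 19 members, 100 groups in all. The rule marks about 1 in 20 by chance where the 4 libraries come from a single population. The library sets break that condition and the members move together, so the count is not compared with chance. In all, 7 values were marked (by the gap to the nearest library over the range). They come from 4 libraries, each of the smaller library set. The share of the FPKM sum in zymosan replicate 1 was 9.85%, with the others at 6.51% to 7.02%. Rps2 in the same library was at 434 FPKM (others 321 to 340.1). In PBS replicate 1, Rps29 was at 1223 FPKM (others 507 to 585), Rplp1 at 1615 (886 to 992) and Rps27l at 238 (168 to 177). Rpl10 was at 2834 FPKM in PAM3CSK4 replicate 1 (1963 to 2081). Rpl3 in LPS replicate 2 was the 1 low value, 432 FPKM (475 to 480.1).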

How the results depend on the processing

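The member counts for morphine and for the 3 pairs of agonists were 0 under all settings run. In the order LPS, PAM3CSK4 and zymosan, median-ratio rescaling gave counts of 0, 0 and 0, the set term 57, 28 and 42, the larger set alone 52, 15 and 30, and the set term with rescaling 1, 14 and 3. With the replicate block the counts were 17, 12 and 22, all lower, against 41.4%, 32.3% and 22.1% of all genes lower. The replicate numbers are not known to pair libraries: same-numbered libraries correlated at −0.279 to 0.824, 34 of 40 pairs over 0.1, and 19 of 20 libraries correlated best with their own number. Omitting 1 library gave 7 to 9 (LPS), 1 to 3 (PAM3CSK4) and 0 to 5 (zymosan). Under rescaling the differences of Rpl4, Rps3 and Rpsa with LPS became 0.15, 0.05 and 0.05, and that of Rps3 with PAM3CSK4 0.02. With the set term added, Rpl4 with LPS was at 0.06 and Rps3 with PAM3CSK4 at 0.02. The cause was not tested. Omitting 1 library moved the mean shares to 8.51% to 9.71% (PBS), 9.31% to 11.2% (morphine), 7.59% to 9.24% (LPS), 7.36% to 8.92% (PAM3CSK4) and 6.82% to 7.93% (zymosan). In the same order, the larger set alone gave means of 8.51%, 8.01%, 6.51%, 7.36% and 6.82%. No setting moved a group mean by 1 SD of its 4 libraries. Leaving out 1 or 2 of the 4 could not reach that limit, so it is no check of those settings. Counting error could not be given for low members such as Rpl39l and Rpl3l.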
